A study of Mus musculus with 4 samples.

Results

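Pparg and 8 genes of lipid handling were followed in Th2 cells that had differentiated either with SH-2251 or without it. The 9 genes were chosen by name, after Pparg had been seen to be lower with SH-2251 on these same arrays, so their differences between SH-2251-treated and control cells are a description and carry no test. They are Pparg and its relative Ppard, together with Plin2, Angptl4, Fabp4, Fabp5, Cd36, Cpt1a and Pdk4, out of 18539 genes that could be named on the array. Probes were found for 8 of the 9 genes through their RefSeq accession, and no probe was matched to Fabp5, which is not analysed here. SH-2251 is a small molecule of the thioamide type that the study tested for its action on IL-5 in Th2 cells. Per the labels, the cells came from the spleen of female C57BL/6J mice and were sorted as CD4 T cells with magnetic beads. For 2 days all 4 cultures received plate-bound antibody to TCR-β (3 µg/ml), antibody to CD28 (1 µg/ml), IL-4 at 10 ng/ml and IL-2 at 2.5 ng/ml. They were then kept for 3 further days with both cytokines. The study's methods also list an antibody to IFN-γ for Th2 culture, which the labels do not mention. SH-2251 was present in both phases of the treated cultures, and the control cultures had none. Each culture was then either left resting or restimulated for 4 h through the TCR. The labels give SH-2251 at 1 µM in the first phase and 1 mM in the second phase, whereas the study's methods give a much lower dose and naive CD4 T cells as the starting population, so the dose behind these arrays is uncertain. The labels do not give the age of the mice, which the study's methods state as a range in weeks for all of its mice together, and the number of animals pooled is not given in the sources used here.

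Each of the 4 conditions was measured on 1 single-dye Agilent array, so no difference has a replicate check, no test was possible, and precision is limited by the number of arrays. A level is the log2 signal minus the 75th percentile of its array, and a difference is a subtraction of levels of the same probe. The technical SD beside a value is the scanner software's own error estimate and covers error within arrays only. All 4 arrays lay on 1 slide read in 1 scan, no spot was saturated, and the share of probes well above background was 56.0% to 56.7%. A probe that was well above background on only 1 array of a pair gives a bound ("at least"), and one that was not well above background on either gives no fold. The 8 T cell markers were well above background on every array, with summed linear levels of 274, 266, 329 and 366 in control resting, SH-2251 resting, control restimulated and SH-2251 restimulated cells. The 8 Th2 markers were as well, with sums of 76.7, 67.3, 456 and 341, although 3 of them were at least 2-fold lower with SH-2251 in resting cells (Il5, Il13 and Il1rl1) and 2 in restimulated cells (Il5 and Il1rl1). Of 8 B cell markers, 7 were well above background on every array with sums of 7.33, 7.86, 6.54 and 9.07, and of 9 myeloid markers 4 were, with sums of 2.78, 2.54, 2.95 and 3.07, while Lyz2, Itgam, Mrc1, Fcgr1 and Itgax were not above background on any. The sums of natural killer and CD8 T cell markers were 0.320, 0.518, 0.357 and 0.598, with 2 to 3 of 6 genes above background, and those of red cell markers 0.375, 0.721, 0.242 and 0.648, with 1 to 2 of 4, so both sums were higher on each SH-2251 array. Of 6 endothelial markers, Pecam1 alone was above background, on every array, with sums over the list of 2.28, 1.16, 1.97 and 1.45, lower on each SH-2251 array. Pecam1, which some T cells also express, differed with SH-2251 by -1.02 in resting and -0.48 in restimulated cells. The part of these cells in the differences below was not tested.

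PPAR-γ, the product of Pparg, is a nuclear receptor that is activated by fatty acids and their derivatives. It pairs with a retinoid X receptor and binds direct repeats of the hexamer AGGTCA separated by 1 base. In adipocytes it drives lipid storage, and in CD4 T cells it is induced by IL-4 through STAT6 and is known to be needed for full Th2 effector function, including expression of the IL-33 receptor. The other genes fall into roles that PPAR receptors are known to regulate in various tissues: coating of lipid droplets (Plin2), control of extracellular lipase (Angptl4), intracellular transport of fatty acids (Fabp4, Fabp5), uptake at the membrane (Cd36), entry into mitochondria (Cpt1a) and restraint of pyruvate oxidation (Pdk4). Plin2 and Angptl4 are also known to respond to hypoxia.

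The promoter windows below are shown because Pparg and Plin2 were lower with SH-2251 in both states and Cpt1a was lower by 2-fold or more after restimulation in both cultures. They run from 250 bases before to 50 bases after the annotated transcription start, 5′ to 3′ on the strand of the gene, and were taken from RefSeq (GRCm38.p6). Capitals mark AGGTCA, or TGACCT where the hexamer lies on the opposite strand.
Pparg, chr6:115360894-115361193, plus strand: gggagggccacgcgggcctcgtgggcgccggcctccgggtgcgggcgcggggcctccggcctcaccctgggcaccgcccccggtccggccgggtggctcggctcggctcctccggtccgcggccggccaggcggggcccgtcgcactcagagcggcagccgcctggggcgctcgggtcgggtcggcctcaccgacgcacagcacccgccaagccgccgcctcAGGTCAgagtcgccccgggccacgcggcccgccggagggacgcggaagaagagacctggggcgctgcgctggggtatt
Pparg, chr6:115362099-115362398, plus strand: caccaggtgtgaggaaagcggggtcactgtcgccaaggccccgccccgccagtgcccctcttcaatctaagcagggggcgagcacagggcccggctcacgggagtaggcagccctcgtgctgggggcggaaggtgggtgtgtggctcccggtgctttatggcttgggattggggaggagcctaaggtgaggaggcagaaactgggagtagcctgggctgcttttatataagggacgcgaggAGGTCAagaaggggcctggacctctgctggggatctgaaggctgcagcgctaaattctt
Plin2, chr4:86670010-86670309, minus strand: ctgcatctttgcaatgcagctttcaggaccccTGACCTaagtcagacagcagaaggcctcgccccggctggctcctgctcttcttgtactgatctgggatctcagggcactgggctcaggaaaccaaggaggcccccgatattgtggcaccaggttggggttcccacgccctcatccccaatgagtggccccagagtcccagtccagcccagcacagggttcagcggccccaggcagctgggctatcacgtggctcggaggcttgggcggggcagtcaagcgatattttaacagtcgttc
Cpt1a, chr19:3323051-3323350, plus strand: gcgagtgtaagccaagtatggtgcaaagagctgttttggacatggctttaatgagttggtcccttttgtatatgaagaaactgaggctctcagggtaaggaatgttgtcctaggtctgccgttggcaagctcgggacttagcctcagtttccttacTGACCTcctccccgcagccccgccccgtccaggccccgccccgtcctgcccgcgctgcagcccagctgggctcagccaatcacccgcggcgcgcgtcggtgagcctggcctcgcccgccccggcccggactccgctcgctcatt

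The hexamer began 28 and 9 bases before the start in the Pparg windows shown, 218 bases before it in Plin2 and 94 bases before it in Cpt1a. A further Pparg start, whose window is not shown, held none. The windows covered 6 of the 9 genes (Angptl4, Fabp4 and Fabp5 had no entry), and 5 of their 8 windows, from 4 genes, held the hexamer on either strand. Among all 32851 windows of the same length, 16.3% held it. The direct repeat AGGTCANAGGTCA, in which N is any base, was in none of the 8 windows and in 0.0396% of all windows. A looser repeat, AGGNCANAGGNCA, which includes every match of the stricter one, was in none of the 8 and in 0.381% of all. A match here is a description of letters and not a binding site.

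With SH-2251, expression of Pparg, Plin2 and Angptl4 was decreased 2-fold or more whether or not the cells were restimulated. Fabp4 passed 2-fold upwards, but only as a bound, on its brightest probe and on a second probe. Both were above background on the SH-2251 arrays alone, so Fabp4 could not have come out lower. The third probe was not above background on any array. The Fabp4 call was lost with signal required on both arrays and with the mean of all probes. In resting cells 6 of the 9 genes could be compared. Of these, 3 lay 2-fold or more below control, beside 2.90% of the 12683 genes compared, and 1 lay that far above it, beside 2.22%. In restimulated cells 6 could be compared, of which the same 3 were lower, beside 2.78% of 12622 genes, and Fabp4 was higher, beside 2.65%. Since the genes were taken up after a decrease with SH-2251 had been seen, nothing is read from these shares. Of the remaining genes, Cpt1a was lower by less than 2-fold in both states. Ppard and Pdk4 were each above background on a single array, Cd36 was not above background on any array, and no value was available here for Fabp5.

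Pparg was read by 1 probe printed 10 times on each array. Its level was 3.33 in control resting cells, -0.50 in SH-2251 resting cells, 4.37 in control restimulated cells and 0.38 in SH-2251 restimulated cells, which correspond to signals of 5631, 434, 10327 and 760 intensity units before scaling. Both control arrays were high and both SH-2251 arrays were low, and the lowest of the 10 spots on either control array (3.27 and 4.33) lay far above the highest on the SH-2251 arrays (-0.43 and 0.46). With SH-2251, Pparg fell by 3.83 on the log2 scale in resting cells (technical SD 0.20), to 7.03% of the control signal. In restimulated cells it fell by 3.99 (technical SD 0.20), to 6.30%. Among genes measured on both arrays these were the decreases of rank 8 of 11874 and of rank 3 of 11812. The SD between the 10 spots was 0.02 to 0.05 on the 4 arrays. Pparg remained well above background on both SH-2251 arrays, so these are measured ratios and not bounds. In RNA from a whole culture, fewer cells that express a gene and less of its RNA per cell cannot be told apart.

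**Figure D1:**
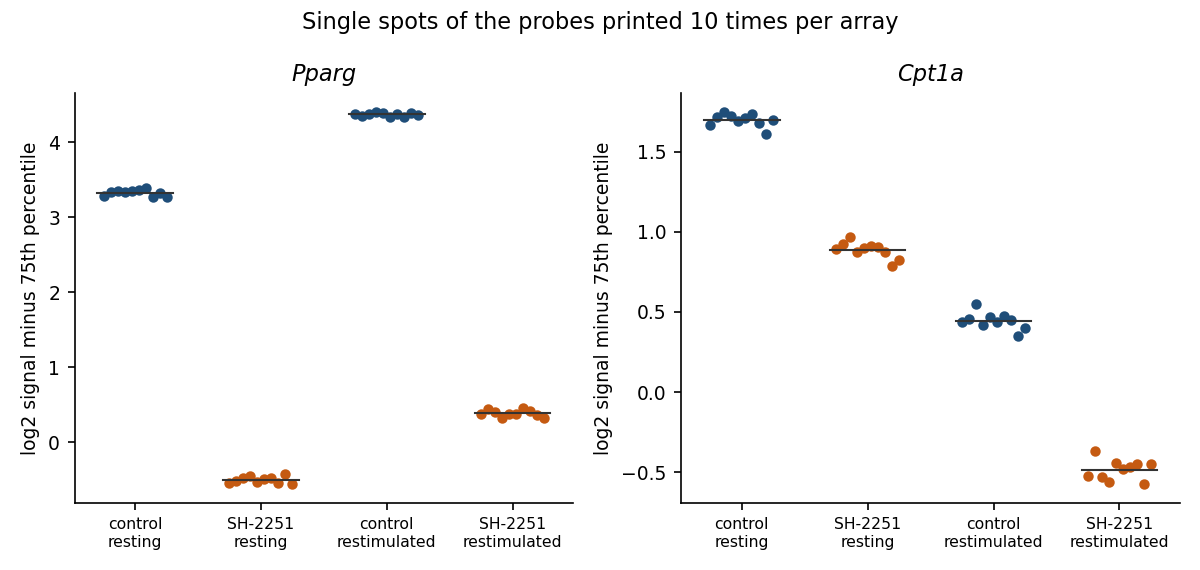
Levels of the single spots of the Pparg probe (left) and of the brighter Cpt1a probe (right), each printed 10 times per array; the y axis is the log2 signal minus the 75th percentile of the array, blue points are control arrays, orange points SH-2251 arrays, and lines mark the mean of the spots. The spots of an array lie close together (SD 0.02 to 0.06), and the arrays do not overlap for either gene.

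Plin2 encodes perilipin 2, the coat protein that covers lipid droplets in most cell types. Its level was 3.83 in control resting, 2.07 in SH-2251 resting, 3.85 in control restimulated and 1.46 in SH-2251 restimulated cells. The control arrays were level with each other and both SH-2251 arrays were lower. Plin2 fell by 1.76 in resting cells, to 29.4% of control, and by 2.39 in restimulated cells, to 19.0% (technical SD 0.20 for each). Angptl4 encodes angiopoietin-like 4, a secreted inhibitor of lipoprotein lipase. It had levels of 3.60, 2.29, 2.84 and 1.70 in the same order, so that each SH-2251 array was below both control arrays. Angptl4 fell by 1.31 in resting cells, to 40.2% of control, and by 1.14 in restimulated cells, to 45.4% (technical SD 0.20 for each). The restimulated value exceeded the 2-fold limit by less than its technical SD. Each of these genes was read by a single probe in a single spot.

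Cpt1a encodes carnitine palmitoyltransferase 1A, which sets the entry of long-chain fatty acids into mitochondria. Its brighter probe, with 10 spots per array, had levels of 1.70 in control resting, 0.89 in SH-2251 resting, 0.44 in control restimulated and -0.48 in SH-2251 restimulated cells. The level was thus lower with SH-2251 within each state and lower after restimulation within each culture. The SH-2251 difference was -0.81 in resting cells and -0.93 in restimulated cells (technical SD 0.20 for each), that is 56.9% and 52.5% of control, short of the 2-fold limit. A second Cpt1a probe, with levels of -1.27, -2.19, -2.61 and -3.37, gave -0.91 (technical SD 0.22) and -0.75 (technical SD 0.26). Both probes therefore had the same order of arrays and neither passed 2-fold.

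**Figure D2:**
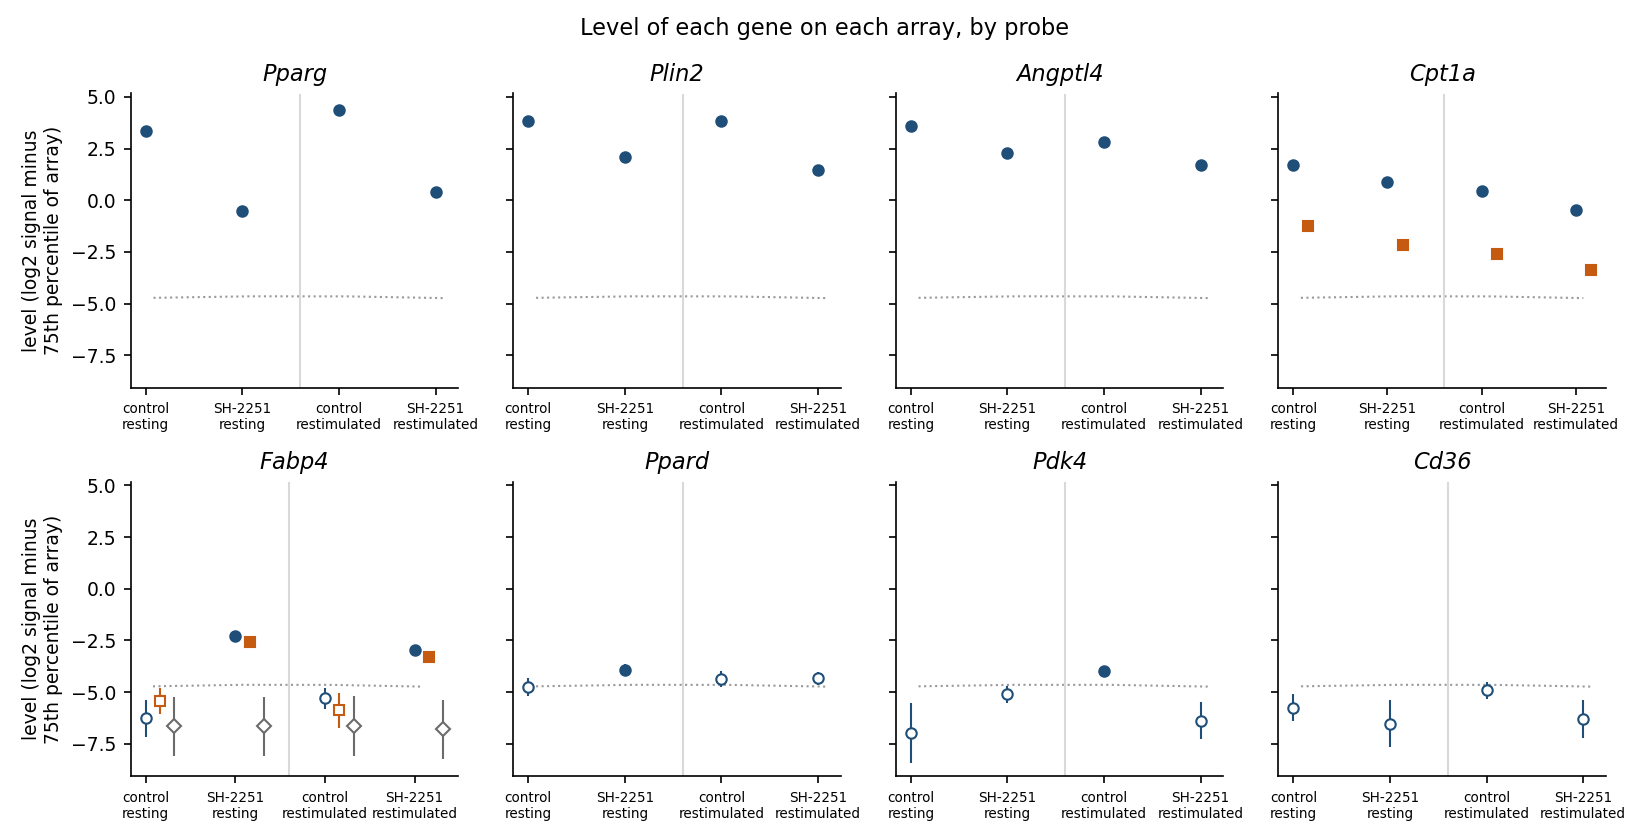
Level of each gene on the 4 arrays, as log2 signal minus the 75th percentile of the array, with 1 marker shape and colour per probe (blue circles for the brightest probe) and bars for the software's error estimate, which is smaller than the marker for bright probes. Filled markers are well above background, open ones are not, and the dotted line is the lowest level that was well above background. Pparg, Plin2 and Angptl4 are lower on the SH-2251 arrays of both states, while 2 of 3 Fabp4 probes are above background on the SH-2251 arrays only.

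Fabp4 encodes a fatty acid-binding protein of adipocytes and macrophages that is a textbook target of PPAR-γ. On its brightest probe it was not well above background in control cells, where the readings were -6.27 (resting) and -5.31 (restimulated), and was above background with SH-2251, at -2.29 and -2.96. It was therefore higher where Pparg was lower. SH-2251-treated cells had at least 5.41-fold more Fabp4 signal when resting and at least 3.23-fold more when restimulated. A second probe, also above background on the SH-2251 arrays alone (-2.57 and -3.32), gave at least 4.45-fold and at least 2.52-fold. The third Fabp4 probe was not above background on any array, so the probes of this gene disagree, and with the mean of all 3 probes the log2 bounds were 0.88 and 0.29, under 2-fold. With normexp background correction the Fabp4 difference in restimulated cells was 0.59. The signals of the brightest probe on the SH-2251 arrays, 126 and 74.9 units before scaling, were low. Of the 6 adipocyte markers, Adipoq, Plin1, Lep, Cfd and Cidec were not above background on any array and Retn was above it on the SH-2251 resting array alone. The summed linear level of these markers was 0.115, 0.129, 0.0959 and 0.0765 in the order of the arrays given above.

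The remaining genes were at or near background. Ppard encodes PPAR-δ, the relative of PPAR-γ that is known for control of fatty acid oxidation. Its probe read -4.74, -3.94, -4.37 and -4.34 and was well above background in SH-2251 resting cells alone, which gives a level at least 1.72-fold higher than in control resting cells and no fold in restimulated cells. Pdk4 encodes pyruvate dehydrogenase kinase 4, which restrains the oxidation of glucose-derived pyruvate. It read -6.98, -5.10, -3.97 and -6.38 and was above background in control restimulated cells alone, at least 1.70-fold higher there than in SH-2251 restimulated cells. Cd36, which encodes a scavenger receptor for fatty acids and oxidised lipoproteins, read -5.76, -6.55, -4.92 and -6.29 and was not above background on any array, so no fold is given. None of these bounds reached 2-fold in the main processing, and they depend on the setting. Under the alternatives the log2 value of Ppard with SH-2251 in resting cells ranged from 0.12 to 1.21. That of Pdk4 in restimulated cells ranged from -2.41 to -0.58.

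**Figure D3:**
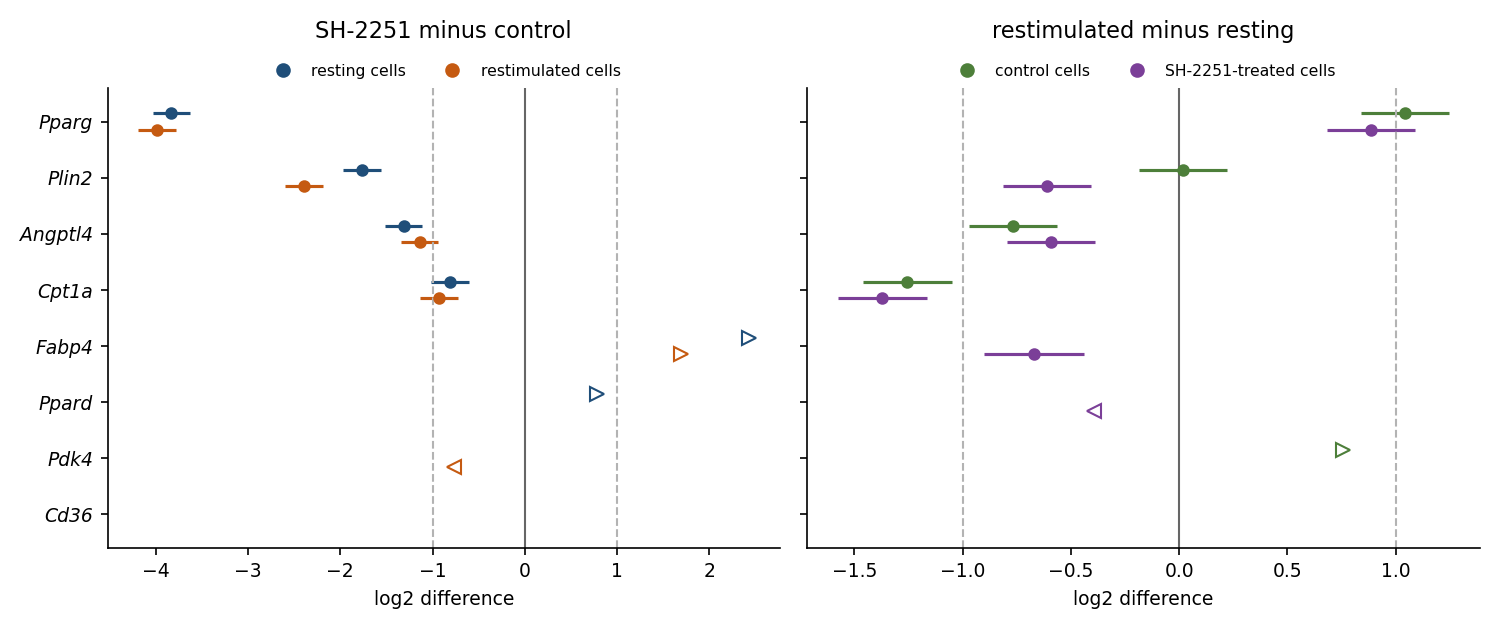
Differences in log2 level for each gene, SH-2251 minus control at left and restimulated minus resting at right, from the brightest probe. Filled circles are measured differences with bars of 1 technical SD, open triangles are bounds that point away from 0, dashed lines mark 2-fold, and a gene without a marker (such as Cd36) has no value. Among the genes measured on both arrays of a pair, Pparg has the largest SH-2251 difference of the set in both states, and Cpt1a lies beyond the 2-fold line downwards after restimulation in both cultures.

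The differences with restimulation were smaller than those with SH-2251 for Pparg, Plin2 and Angptl4. The rule that chose the genes did not use this contrast, although it shares all 4 arrays. In control cells 5 of the 9 genes could be compared, of which Pparg was at least 2-fold higher, beside 7.20% of 12757 genes, and Cpt1a at least 2-fold lower, beside 7.34%. In SH-2251-treated cells 6 could be compared, of which Cpt1a alone was lower, beside 6.98% of 12613 genes, and none was higher, beside 7.09%. Pparg rose by 1.04 in control cells (technical SD 0.20), which is 2.06-fold, and its difference of 0.89 in SH-2251-treated cells (technical SD 0.20) stayed under the limit. With quantile normalization the control value was 0.92, so the call for Pparg rests on the scaling. Cpt1a fell by 1.25 in control cells and by 1.37 in SH-2251-treated cells, and its second probe fell by 1.34 and by 1.18. Angptl4 differed by -0.77 and -0.59, Plin2 by 0.02 and -0.61, and Fabp4, measured in SH-2251-treated cells alone, by -0.67.

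In the order of its levels, Pparg was highest in control restimulated cells, followed by control resting, SH-2251 restimulated and SH-2251 resting cells, with steps of 1.04, 2.95 and 0.89 that were each above the technical SD. Plin2 had the same pair of cultures at the top, but its control arrays differed by less than the technical SD. Both Angptl4 and Cpt1a were highest in control resting cells and lowest in SH-2251 restimulated cells. Subtracting the SH-2251 difference in resting cells from that in restimulated cells gave -0.16 for Pparg, -0.63 for Plin2, 0.17 for Angptl4 and -0.12 for Cpt1a (technical SD 0.29 for each). Among these 4 genes, only Plin2 had a change between states beyond that error in the main processing. Plin2 was read in a single spot per array. Under the alternative settings its restimulation difference ranged from -0.65 to -0.33 in SH-2251-treated cells and from -0.06 to 0.02 in control cells. With 1 array a condition, the change between states was not tested against biological variation.

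Of 11517 other genes above background on all 4 arrays, those whose levels followed Pparg most closely, by the root mean square difference after each gene was centred on its own mean over the 4 arrays, were Il1rl1 (0.29), Tgm2 (0.49), Plac8 (0.57), Hic1 (0.58) and Ffar2 (0.60). Il1rl1 encodes ST2, the receptor for IL-33, and had levels of 0.62, -3.99, 1.33 and -2.45 in the order of the arrays given above. It was low on both SH-2251 arrays, as Pparg was. Tgm2, which encodes transglutaminase 2, had levels of 6.46, 1.75, 6.14 and 2.67, and its 3 probes lay between -4.71 and -4.33 for the SH-2251 difference in resting cells. Ffar2 encodes a receptor for short-chain fatty acids and had levels of 1.28, -2.08, 1.40 and -1.04. Plac8 differed with SH-2251 by -4.20 and -3.88, and Hic1, which encodes a transcriptional repressor, by -4.88 and -4.11. Of the set itself, Plin2 stood at place 31 of this order (1.12), Angptl4 at 183 (1.57) and Cpt1a at 2504 (1.90). These distances describe 4 arrays and rest largely on the SH-2251 decrease, which was known when Pparg was chosen, so closeness carries no test. On restimulation of control cells Pparg rose by 1.04, whereas Tgm2, Plac8 and Hic1 differed by -0.32, -0.30 and -0.30. In the same contrast Il1rl1 differed by 0.71 and Ffar2 by 0.12. The other Il1rl1 probes were dimmer, and 1 of them was not above background on any array. With the mean over its probes the SH-2251 difference of Il1rl1 in resting cells went from -4.61 to -2.48 and its distance to 0.62. With normexp, which kept the 12 spots of uneven local background on the SH-2251 resting array, the difference and distance were -1.99 and 0.70. In both cases Tgm2 (0.49 and 0.56), Plac8 (0.57 and 0.57) and Hic1 (0.58 and 0.60) were closer to Pparg than Il1rl1 was.

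**Figure D4:**
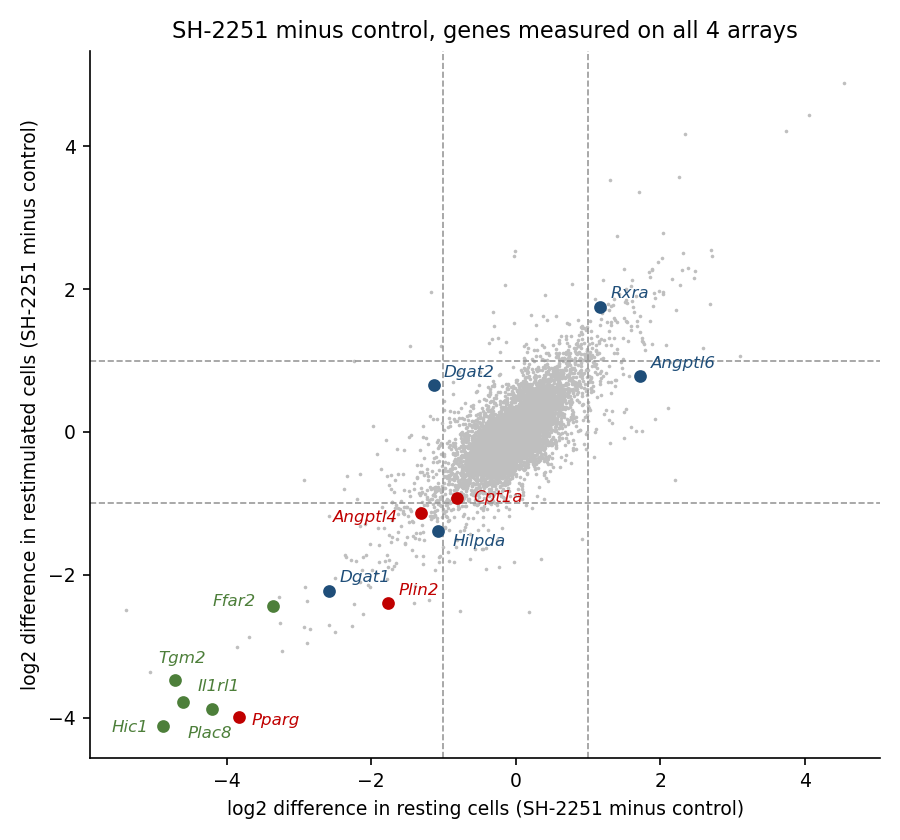
SH-2251 minus control in resting cells (x axis) against restimulated cells (y axis), as log2 differences, for the genes well above background on all 4 arrays (grey). Red marks genes of the set, blue named genes of the related lists and green the genes closest to Pparg in pattern, and dashed lines mark 2-fold. Pparg lies among the lowest points on both axes, and Dgat2 is lower in resting cells but not in restimulated cells.

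Related genes were read from 8 lists of the same pathway, written with earlier results of these arrays known. Among 26 nuclear receptors, coactivators and corepressors, 22 could be compared in each state. The median differences were 0.02 and 0.04 beside -0.06 and -0.06 over all genes compared. In each state 0 were at least 2-fold lower, beside 2.90% of all genes in resting and 2.78% in restimulated cells. In each state 1 was at least 2-fold higher, beside 2.22% and 2.65%. The gene that rose was Rxra, which encodes retinoid X receptor alpha, the partner of PPAR-γ. Rxra levels were 1.06, 2.23, 1.52 and 3.27, lower on the control array of each pair. It rose by 1.17 in resting and 1.76 in restimulated cells, and its second probe by 1.08 and 1.88, although the value in resting cells was 0.91 under normexp. Rxrb differed by 0.07 and -0.10, and Stat6, which carries the IL-4 signal, by -0.20 and 0.14.

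The lipid droplet, triglyceride and lipolysis list held 24 genes, of which 18 could be compared. The number past 2-fold was 3 downwards and 0 upwards when the cells were resting, beside 2.90% and 2.22% of all genes, and 2 downwards and 0 upwards after restimulation, beside 2.78% and 2.65%, with medians of -0.18 and -0.20. Dgat1 encodes an enzyme of the last step of triglyceride synthesis. Its levels of 3.97, 1.38, 4.04 and 1.82 were high on both control arrays and low on both SH-2251 arrays. Dgat1 fell by 2.58 and by 2.22, to 16.7% and 21.4% of control, with -2.54 and -2.26 on its second probe. Hilpda, a hypoxia-inducible protein of droplets that inhibits lipolysis, fell by 1.08 without and by 1.39 with restimulation. With quantile normalization the Hilpda difference in resting cells was -0.98, just under 2-fold. Dgat2, the other enzyme of that step, fell by 1.14 in resting cells but differed by 0.65 in the opposite direction in restimulated cells. The resting value of Dgat2 was under 2-fold with normexp (-0.84) and with the mean of its probes (-0.82). The difference was below 0 for 11 of the 18 genes in resting cells and for 10 of 18 in restimulated cells. Over all genes compared it was below 0 for 57.5% and 57.9%. Among genes that did not pass, Plin3 differed by -0.27 and -0.21 and Mgll, a monoglyceride lipase, by -0.47 and -0.50, whereas Lipa differed by 0.51 and 0.79. A dim Mgll probe, above background on the control arrays alone, disagreed and was at least 1.67-fold lower in resting and at least 2.58-fold lower in restimulated cells.

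Of 31 genes of mitochondrial and peroxisomal fatty acid oxidation, 28 could be compared. With SH-2251, 0 were at least 2-fold lower in each state, beside 2.90% of all genes in resting and 2.78% in restimulated cells. In each state 1 was at least 2-fold higher, beside 2.22% and 2.65%. The SH-2251 difference was below 0 for 19 of 28 genes in resting cells and for 17 of 28 in restimulated cells, beside 57.5% and 57.9% of all genes compared, with medians of -0.16 and -0.15. Acadvl, which opens the oxidation of very long-chain fatty acids, differed by -0.91 and -0.81, and Slc25a20, which carries acylcarnitines across the inner membrane, by -0.72 and -0.59, none of them past 2-fold. The genes that rose were Acot1, an acyl-CoA thioesterase, by 1.37 in resting cells (0.72 in restimulated cells), and Cpt1c, a brain-enriched relative of Cpt1a, by 1.02 in restimulated cells (0.76 in resting cells). Acot1 is nearly identical to Acot2, so their signals may be shared, and with normexp without spots of uneven background the increases were 0.88 for Acot1 and 0.30 for Cpt1c. With restimulation, 22 of the 28 genes had a difference below 0 in each culture, beside 54.8% (control) and 53.6% (SH-2251) of all genes. The medians were -0.47 and -0.60, beside -0.06 and -0.05 over all genes. In control cells 6 genes were at least 2-fold lower, beside 7.34% of all genes, and in SH-2251-treated cells 5 were, beside 6.98%.

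Fewer genes of fatty acid uptake, binding and activation could be compared, 14 of 26 in resting cells, with a median of -0.08. Of these, 0 passed 2-fold in either direction, beside 2.90% lower and 2.22% higher over all genes. In restimulated cells 18 could be compared, with a median of -0.19. Of these, 3 passed 2-fold downwards, beside 2.78% of all genes, and 0 upwards, beside 2.65%. Olr1, a receptor for oxidised low-density lipoprotein, was not above background in resting cells and had levels of 0.05 in control and -1.32 in SH-2251 restimulated cells, a fall of 1.37. The scavenger receptor gene Msr1 was at least 3.57-fold lower and Crabp2, which encodes a retinoic acid carrier, at least 4.43-fold lower with SH-2251 in restimulated cells, where the SH-2251 array was not above background. Both could be compared only through the control array, so neither could come out higher. Other Msr1 probes were not above background on either of those arrays, the mean of its probes gave 0, and under normexp Msr1 differed by -0.96 and Crabp2 by -0.87. Acsl4, an acyl-CoA synthetase, differed by -0.83 and -0.40, and Dbi, an acyl-CoA carrier, by -0.61 and -0.58, whereas Scarb2 differed by 0.27 and 0.62. The difference was below 0 for 7 of 14 genes of this list in resting cells and for 11 of 18 in restimulated cells. The shares over all genes compared were 57.5% and 57.9%.

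**Figure D5:**
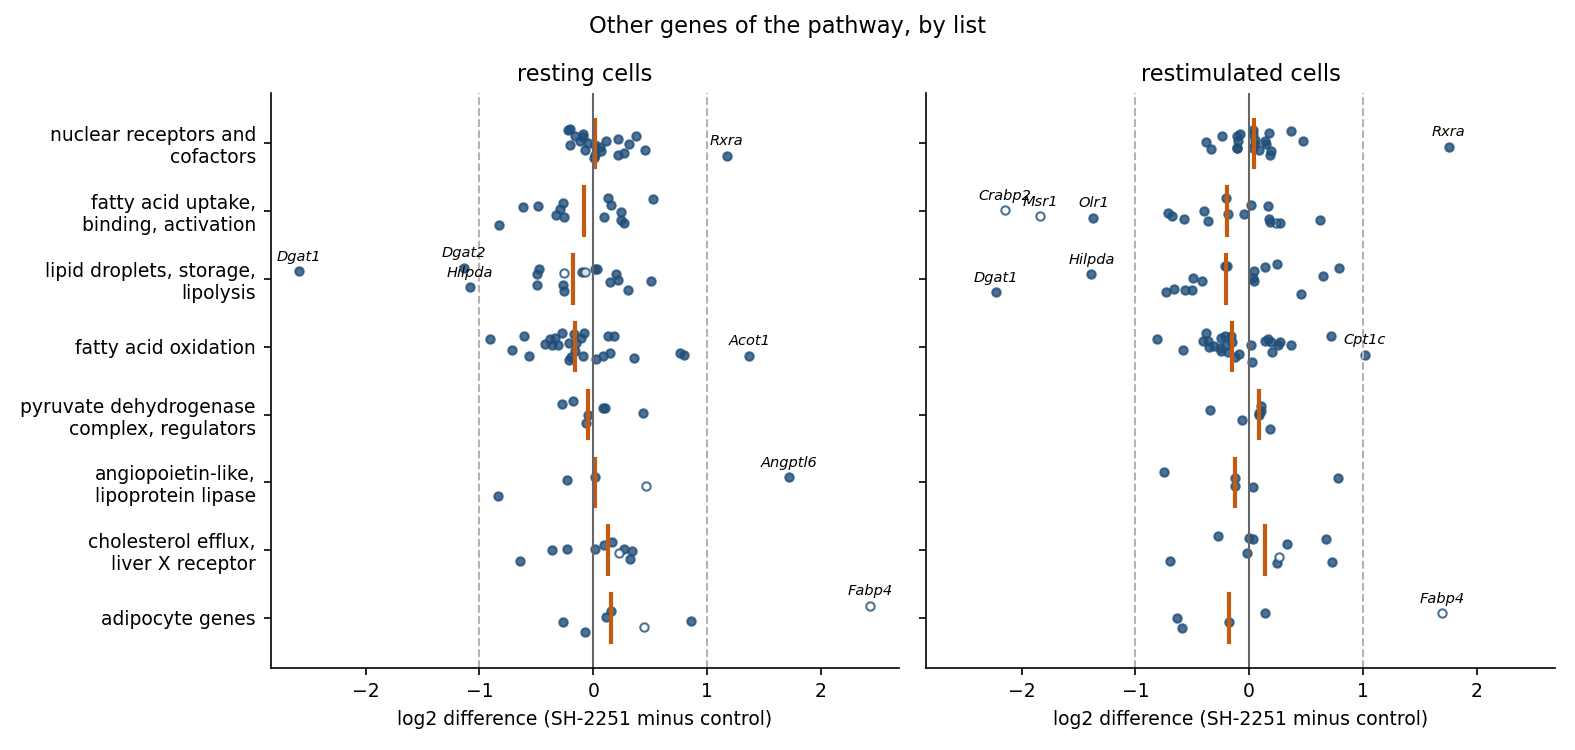
SH-2251 minus control for the genes of each list, in resting (left) and restimulated cells (right), as log2 differences. Filled points are measured, open points are bounds, orange lines are list medians and dashed lines mark 2-fold, with names for the genes of the naming rule that lie past it. The list medians lie between -0.20 and 0.16, and Dgat1 is the gene lying lowest among the measured points of both panels.

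The remaining lists had 10 or fewer genes compared in each state, so a count of 0 in them is not read as a lack of change. Over all genes, the shares past 2-fold were 2.90% downwards and 2.22% upwards in resting cells. In restimulated cells these shares were 2.78% and 2.65%. All 7 genes of the pyruvate dehydrogenase list that had a probe could be compared (Pdk2 and Pdp2 had no matched probe), and 0 were past 2-fold with SH-2251 in either state, with medians of -0.04 and 0.09. Pdk1, a kinase of that complex, differed with SH-2251 by -0.04 and -0.06, whereas with restimulation it fell by 1.51 (control) and by 1.53 (treated). Pdk3 differed with SH-2251 by -0.27 and -0.35. Of 11 angiopoietin-like and lipoprotein lipase genes, 5 could be compared, with 1 past 2-fold upwards in resting cells, 0 downwards, 0 either way in restimulated cells, and medians of 0.01 and -0.12. Angptl6 rose by 1.72 in resting cells, against 0.78 in restimulated cells, and its second probe gave 1.77 and 0.63, whereas Angptl2 differed by -0.84 and -0.75. Among 12 genes of cholesterol efflux and liver X receptor targets 10 could be compared and 0 passed 2-fold, with medians of 0.13 and 0.14, Abca1 at 0.10 and 0.33 and Abcg1 at 0.27 and 0.25. Of 15 adipocyte genes with a probe, 8 were not above background on any array. The adipocyte gene past 2-fold was Fabp4 itself, in 7 genes compared in resting and 5 in restimulated cells (medians 0.16 and -0.18).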

How the data were processed

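RNA from 4 conditions was hybridised to 1 Agilent array each. The authors deposited scanner files written by Feature Extraction 10.7.3.1, whose processed intensity had been background-corrected by that software, and a table of log2 values. Set against the scanner signals, at least 99.6% of the log2 values deposited by the authors equalled, within 0.01, the log2 intensity minus the 75th percentile of the array (the column medians lie between -3.78 and -3.70). Here control and outlier spots (77 to 106 per array) were left out, spots of a probe averaged and the 75th percentile subtracted. Probes were named through RefSeq (GRCm38.p6), with 27198 of 41174 matched, and where a gene had several probes the brightest on average stood for it. A gene was compared if well above background on at least 1 of 2 arrays. A probe that was dim on the other array took, there, the lowest signal called well above background or its own if higher. A bound that then pointed the wrong way became 0. The limit was 2-fold. With 1 array a condition no test was run.

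The members, the lists and the tests were chosen with earlier results of these data known. Named genes were the 9 members, up to 4 genes per list past 2-fold with SH-2251, up to 2 that did not pass, and the 5 genes most like Pparg. Pdk1, Lipa, Scarb2 and the likeness places of Plin2, Angptl4 and Cpt1a were also given after their values were seen. Alternatives were median centring, quantile normalization, normexp (offset 50, on median spot signals) with and without spots of uneven local background, the deposited value table, other filters, the mean of all probes, outlier spots kept, and thresholds of 1.5-fold and 3-fold. The steps were also run on simulated data, made from a single array of each pair with only the software's error added. Those data hold no variation between arrays or cultures, so they do not speak to it. Probe sequences were not used here. The software was limma 3.58.1 under R 4.3.3 and, under Python 3.11.15, pandas 2.3.3, numpy 2.4.6 and matplotlib 3.10.9.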

Additional observations from a re-analysis of the deposited data

Results flagged for a closer look

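Dgat2, which encodes an enzyme of the last step of triglyceride synthesis, differed from control in opposite directions in the 2 states, each by more than 2 technical SDs. Its SH-2251 difference was -1.14 in resting cells and 0.65 in restimulated cells, from levels of 0.21 and -0.93 in resting and 0.18 and 0.83 in restimulated cells (control and SH-2251). The control arrays were level with each other, and the SH-2251 arrays lay on either side of them. Its other probes gave -1.05 and 0.68, and -0.27 and 0.48. With normexp the resting difference was -0.84 and with the mean of all probes -0.82. The difference between the states was not tested, since each condition has 1 array.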

How the results depend on the processing

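The 3 decreases of Pparg, Plin2 and Angptl4 with SH-2251 kept their direction and stayed past 2-fold in both states under all 9 alternatives of scaling, background, filter and probe. The filters and the mean of all probes could not move these values, because each gene had 1 probe that met every filter. The values deposited by the authors and the keeping of outlier spots left the counts over all genes nearly unchanged. The check therefore rests mainly on median centring, quantile normalization and the normexp settings. Pparg ranged from -3.85 to -3.49 in resting and from -4.01 to -3.83 in restimulated cells, Plin2 from -1.94 to -1.71 and from -2.39 to -2.26, and Angptl4 from -1.51 to -1.26 and from -1.14 to -1.03. Cpt1a ranged from -0.90 to -0.75 and from -0.93 to -0.82 and never reached 2-fold. Of the 9 genes, 1 was higher with SH-2251 in restimulated cells, and this count became 0 under normexp with offset 50, under normexp without spots of uneven local background, with signal required on both arrays and with the mean of all probes. The 1 higher in resting cells became 2 under normexp with offset 50, with neither filter nor bound and at 1.5-fold, and 0 with signal required on both arrays and with the mean of all probes. The 3 lower in restimulated cells became 5 with neither filter nor bound and at 1.5-fold. On restimulation of control cells, the 1 higher became 0 with quantile normalization and at 3-fold and 2 with neither filter nor bound and at 1.5-fold, and the 1 lower became 2 at 1.5-fold and 0 at 3-fold. On restimulation of SH-2251-treated cells, the 0 higher became 1 at 1.5-fold, and the 1 lower became 2 under normexp with offset 50 and with neither filter nor bound, 4 at 1.5-fold and 0 at 3-fold. The difference of Il1rl1 between restimulated and resting SH-2251-treated cells, 1.54, became -0.30 under normexp with offset 50. Over all genes, the 368 lower and 282 higher in resting cells became 162 and 694 under normexp with offset 50, 189 and 122 without spots of uneven local background, and 798 and 623 with neither filter nor bound. In restimulated cells 351 and 334 became 161 and 149 under normexp with offset 50 and 950 and 678 with neither filter nor bound. For restimulation, 937 and 918 in control cells became 443 and 629 under normexp with offset 50, and 881 and 894 in SH-2251-treated cells became 1512 and 731. Without spots of uneven local background, normexp gave 159 and 149 for SH-2251 in restimulated cells, 442 and 627 for restimulation of control cells and 443 and 660 for that of SH-2251-treated cells, where neither filter nor bound gave 1421 and 1308. At 1.5-fold the counts for SH-2251 were 945 and 773 in resting and 902 and 871 in restimulated cells, and at 3-fold 142 and 101, and 144 and 102. For restimulation they were 2366 and 1914 in control and 2385 and 1871 in treated cells at 1.5-fold, and 194 and 379, and 145 and 396, at 3-fold. Leaving out the spots of uneven local background moved the normexp counts mainly in the comparisons that use the SH-2251 resting array. That array held 12 such spots, beside 1 on the control resting, 2 on the control restimulated and 0 on the SH-2251 restimulated array. Normexp values of single genes on that array, such as those of Il1rl1, share this limit. The cause of these changes in counts was not tested, except that the filters and fold limits change them by construction. The signal over background limits what can be said of Fabp4, Ppard, Pdk4 and Cd36. No paired analysis was possible because each condition has 1 array, and for the same reason no array could be left out.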
